A study of Mus musculus with 3 samples.

Results

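The 46 genes described here encode core machinery of the cell cycle and of DNA replication, and were chosen by name: cyclins and cyclin-dependent kinases of G1, pocket proteins and E2F factors, genes that license and copy DNA, and genes of mitosis. All 46 were among the 24062 gene symbols counted by RNA-Seq in the rostrum, the anterior head, of E9 mouse embryos. D cyclins with CDK4 or CDK6, then E cyclins with CDK2, phosphorylate the retinoblastoma family of pocket proteins and so release E2F factors, which switch on genes for DNA synthesis. Origins are licensed by loading of the MCM2-7 helicase with CDC6 and CDT1, and geminin keeps CDT1 from loading it again in the same cycle. CDK1 with A and B cyclins then drives mitosis, and CDC20 with the anaphase-promoting complex ends it. The neuroepithelium of the closing neural tube is a rapidly dividing tissue, in which most of these genes are in use.

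*tuft* is a spontaneous mouse mutant in the 3H1 Balb strain with a nonsense mutation in *Tet1*, which encodes a methylcytosine dioxygenase, a DNA demethylation enzyme. The *tuft* embryos were homozygous for it and had a neural tube defect, and the wild-type embryos were of the same strain and stage, 18 to 22 somites. RNA of 3 embryos was pooled for each library, and 1 column of counts per genotype was analyzed, called a library here, so no value below has an error between embryos. The labels list 2 *tuft* samples, and whether the *tuft* column holds either or both of them cannot be told. The question was how the RNA of these genes in affected *tuft* heads compared with wild type, and no difference could be tested.

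Depth on genes was 14251942 counts for the wild-type and 6433067 for the *tuft* library, and levels are given as counts per 1000000 counts on genes (CPM). Folds are *tuft* over wild type after normalization by the trimmed mean of M-values (TMM). Each fold has a 95% interval for counting error (Clopper-Pearson), which is not an error between embryos. A gene was taken as past 2-fold when its fold was at least 2 in either direction with an interval that did not reach 1. *Tet1* had 32 *tuft* counts and 435 wild-type counts, a fold of 0.214 (0.145 to 0.307), which was lower in the *tuft* library. Genes were missing unevenly: 10121 genes reached 100 counts in wild type and 542 of them (5.36%) had none in *tuft*, while the reverse held for 6 of 7143 (0.0840%). The forebrain and anterior head markers *Six3*, *Otx2*, *Lhx2*, *Pax6* and *Sox2* were found in both libraries, but not at like levels in each case. *Otx2* was at 154 CPM in *tuft* and 148 in wild type, *Six3* at 212 and 67.2 (fold 4.14) and *Pax6* at 44.3 and 113 (fold 0.514), while *Hesx1* was at 0 and *Rax* at 2 counts in *tuft*. Posterior markers, *Hoxa9*, *Hoxb9*, *Hoxc9*, *Hoxd9*, *Cdx2* and *T*, summed to 0.466 and 1.47 CPM. Yolk sac markers differed, at 285 CPM in *tuft* and 2386 in wild type, with 9 of 11 past 2-fold lower and *Apoa2*, *Apoa4* and *Apoc2* at 0 in *tuft*. Erythroid markers summed to 35644 and 3288 CPM with 3 of 9 higher and 3 lower, and *Gata1* and *Klf1* were at 0 in *tuft*. Most of the *tuft* sum was *Hba-x* (18461 and 1415 CPM) and *Hbb-y* (16155 and 655), while *Hbb-bh1* was at 887 and 1083. Endothelial markers summed to 98.1 and 287 CPM, with 4 of 6 lower and 1, *Emcn*, higher, and *Pecam1* was at 0 in *tuft*. Neuronal markers summed to 118 and 125 CPM, with 2 of 8 higher (*Elavl3* and *Elavl4*) and 2 lower (*Map2* and *Isl1*), and head mesenchyme markers to 263 and 188 CPM, with 1 of 5, *Twist1*, higher. The precursor of ribosomal RNA, *Rn45s*, was at 7647 CPM in *tuft* and 45004 in wild type (fold 0.223). The part of these differences in the values below was not tested, and in RNA of whole tissue fewer cells of a type and less RNA per cell cannot be told apart.

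Every one of the 46 genes had counts in both libraries. The lowest was *Cdk6*, with 19 counts in *tuft*, and 38 genes reached 100 counts in both. Together they took 1.20% of the counts in wild type and 1.44% in *tuft*. *Cdk4* alone was at 1561 of their 12038.6 CPM in wild type and 6068 of 14374.5 in *tuft*. Without *Cdk4*, the other genes together took a smaller share of the counts in *tuft* than in wild type. Shares and CPM are not scaled by TMM (factor 0.761). After that scaling, the sum of these other genes was not lower in *tuft*. Past 2-fold, 8 genes were higher in *tuft* (17.4%) and 14 lower (30.4%), and 24 were neither. Of all 13979 genes with at least 10 counts over both libraries, 21.2% were past 2-fold higher and 37.3% lower. Of the 9978 of these whose mean level lay within the range of the 46 genes, 25.4% were higher and 28.4% lower. The median level of those genes was 41.7 CPM, below the 160 CPM of the 46 genes. The share of cell cycle genes that were lower was near this background, and the share that were higher was below it. With library totals alone as the scale, which moved every log2 fold by -0.39, 5 of the 46 were higher and 17 lower, beside 15.8% and 45.7% of all genes tested.

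The median log2 fold of the 46 genes was -0.06, beside -0.46 over all genes tested and -0.04 over the genes within their level range. With a minimum of 10 counts in each library, the median of all genes tested was 0.11 and 23.0% of them were lower, so the side of the members' median and share on which all genes lay depended on the filter. The interquartile range of the cell cycle genes went from -1.18 to 0.63, a width of 1.81. This width was 2.23 for the genes within their level range, which were the less abundant, and 2.56 for all genes tested. The lowest log2 fold was -3.91, of *E2f1*, and the highest 2.82, of *Rb1*. The plot of folds against level shows the 46 genes among the others.

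**Figure D1:**
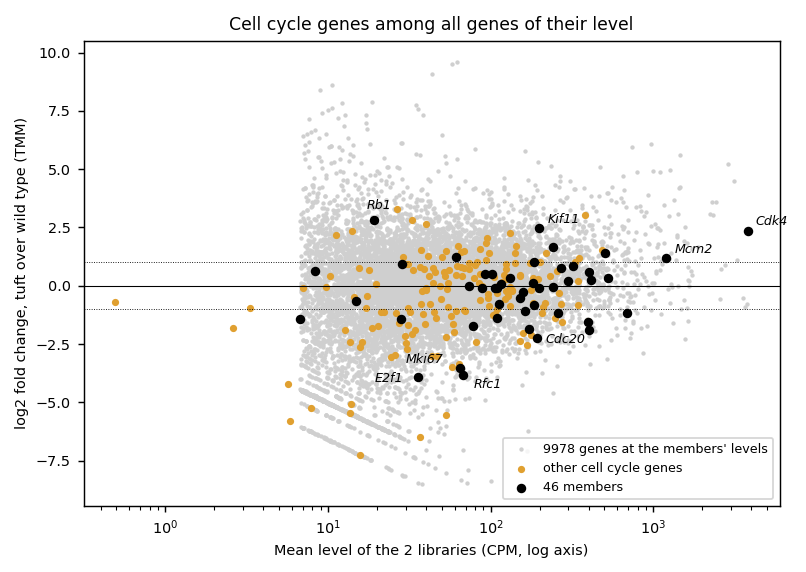
Log2 fold change of *tuft* over wild type (TMM, vertical axis) against the mean level of both libraries in CPM (horizontal log axis). Grey points are the 9978 genes within the level range of the 46 members, orange points the other cell cycle genes and black points the 46 members. The solid line marks no change and the dotted lines 2-fold, and grey points on slanting lines at the lower left have a few counts or none in *tuft*. The black points spread on both sides of the solid line, from *E2f1* at -3.91 to *Rb1* at 2.82.

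The roles differed in their counts, and none of these differences was tested. Of all genes tested 37.3% were past 2-fold lower and 21.2% higher, and of those within the level range 28.4% and 25.4%. Of the 17 genes of licensing and the fork, 9 were past 2-fold lower and 2 higher, with a median log2 fold of -1.16. In the wider origin and fork lists described below, as many genes were higher as lower (4 and 4, and 7 and 7). Of the 15 mitotic genes, 3 were lower and 3 higher, with a median of -0.03. The 9 G1 cyclins, kinases and their inhibitor had 2 higher and 1 lower (median 0.23), and the 5 pocket proteins and E2F factors 1 higher and 1 lower (median 0.76). The plot of folds by gene shows that the lower values gather in the rows of MCM2-7 and of the fork.

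**Figure D2:**
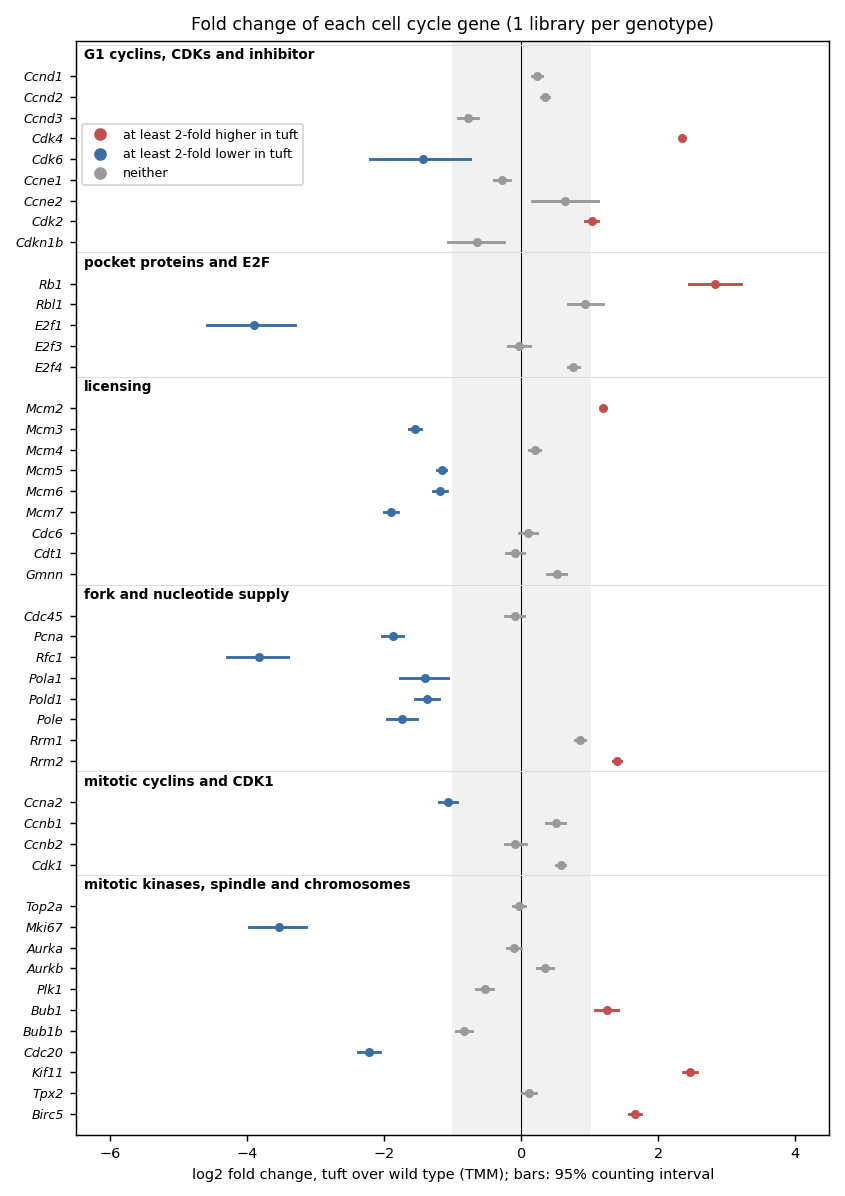
Log2 fold change of *tuft* over wild type (TMM) for each of the 46 genes, grouped by role, with bars for the 95% counting interval. Red marks genes at least 2-fold higher in *tuft*, blue those at least 2-fold lower and grey neither, and the shaded band spans 2-fold in each direction. Blue points make up 4 of 9 licensing rows and 5 of 8 fork rows, and the highest red points are *Rb1*, *Kif11* and *Cdk4*.

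Promoters of 35 of the 46 genes were matched in RefSeq (GRCm38.p6), each as a window from 250 bases before to 50 after the start, 300 bases in all, and a gene with several windows was counted if any held a motif. The E2F core motif was searched as TTCCCGC or TTGGCGC, the cell cycle homology region (CHR), an element of late cell cycle promoters, as TTTGAA, and the CCAAT box as CCAAT, each on both strands. The E2F core lay in the promoter of 10 of 14 replication genes (71.4%) and 3 of 12 mitotic genes (25%), against 7.79% of 27025 genes. The CHR letters lay in 2 of 14 replication genes and 9 of 12 mitotic genes (75%), against 20.2% of all genes. CCAAT was found in 11 of 14 and in 11 of 12 (91.7%), against 41.1%. Over all 35 genes the E2F core was found in 15 (42.9%), and it overlapped a CCAAT box in 3, *Ccnb1*, *Mcm7* and *Rfc1*. By fold, the core was found in 8 of 12 genes past 2-fold lower and 1 of 7 past 2-fold higher, and most of the lower genes are replication genes. A match of letters does not show binding.

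The next sequences are the 120 bases before the start of 5 genes, written 5′ to 3′ on the strand of the gene, with the 3 motifs in capitals (CCAAT also as ATTGG and TTTGAA also as TTCAAA, on the other strand). *Mcm2* and *Mcm6* are shown because these subunits of 1 helicase lay on opposite sides of 1 in fold, and *Cdk1*, *Cdc20* and *Kif11* because these mitotic genes share a CHR and a CCAAT box while their folds differed. *Mcm2* (chr6:88898781-88898900, minus strand) has 1 CHR in this stretch and *Mcm6* (chr1:128359706-128359825, minus) has 2 E2F cores and 2 CCAAT boxes. *Cdk1* (chr10:69352913-69353032, minus) has 2 CHR and 2 CCAAT boxes, *Cdc20* (chr4:118437344-118437463, minus) 1 and 2, and *Kif11* (chr19:37376262-37376381, plus) 1 and 1.
Mcm2: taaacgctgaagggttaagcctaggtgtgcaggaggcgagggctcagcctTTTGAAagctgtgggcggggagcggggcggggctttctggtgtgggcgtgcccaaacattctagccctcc
Mcm6: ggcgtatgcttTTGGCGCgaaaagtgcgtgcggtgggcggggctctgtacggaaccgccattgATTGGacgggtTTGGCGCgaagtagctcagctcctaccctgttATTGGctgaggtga
Cdk1: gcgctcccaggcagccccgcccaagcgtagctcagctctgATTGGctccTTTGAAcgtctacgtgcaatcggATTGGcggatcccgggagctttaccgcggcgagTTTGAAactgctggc
Cdc20: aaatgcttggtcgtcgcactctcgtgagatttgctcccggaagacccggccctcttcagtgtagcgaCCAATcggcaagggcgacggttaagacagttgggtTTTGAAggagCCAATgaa
Kif11: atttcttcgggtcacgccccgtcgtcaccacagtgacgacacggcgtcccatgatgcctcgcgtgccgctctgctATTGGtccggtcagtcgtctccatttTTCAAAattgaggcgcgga

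In G1, the kinase gene *Cdk4* (chromosome 10 of GRCm38 from 127063535 to 127067288) had the highest level of the 46 genes in both libraries, also per kilobase of transcript. It had 39038 *tuft* counts and 22243 wild-type counts, or 6068 and 1561 CPM, a fold of 5.11 (5.03 to 5.2). By counts it was gene 7 of the *tuft* library and gene 28 of the wild-type library. *Tspan31*, which overlaps *Cdk4*, had 1109 and 1288 counts, a fold of 2.51. No source used here says whether strand was counted. If it was not, reads that fit both genes were left out as ambiguous. *Cdk6*, the other D cyclin kinase, had 19 and 150 counts, a fold of 0.369 (0.216 to 0.596). *Cdk2*, the partner of the E cyclins, had 1449 and 2071 counts, a fold of 2.04 (1.90 to 2.18), and it was no longer past 2-fold with library totals or the upper quartile as the scale. These kinases therefore stood on both sides of 1, with *Cdk4* and *Cdk2* higher and *Cdk6* lower in *tuft*.

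None of the D and E cyclins was past 2-fold. *Ccnd1* was at 388 CPM in *tuft* and 435 in wild type (2497 and 6197 counts), a fold of 1.17. *Ccnd2* was at 515 and 531 CPM (fold 1.27). *Ccnd3* had 443 and 2206 counts, or 68.9 and 155 CPM, a fold of 0.585 (0.527 to 0.648), and it overlaps *Bysl*. *Ccnd1* and *Ccnd2* thus took nearly the same share of both libraries and *Ccnd3* did not, and the ratio of *Ccnd1* to *Ccnd3* counts was 5.64 (5.09 to 6.25) in *tuft* and 2.81 (2.68 to 2.95) in wild type. Per kilobase of the longest coding transcript the D cyclins spanned 1.59-fold in wild type and 3.18-fold in *tuft*. *Ccne1* had 779 and 2760 counts (fold 0.822) and *Ccne2*, the less abundant in both libraries also per kilobase, 58 and 108 (fold 1.56, 1.12 to 2.17). *Cdkn1b*, which encodes the CDK inhibitor p27, had 62 and 284 counts, a fold of 0.636 (0.475 to 0.839). *Ccnd3* and *Cdkn1b* were past 2-fold lower with library totals as the scale.

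**Figure D3:**
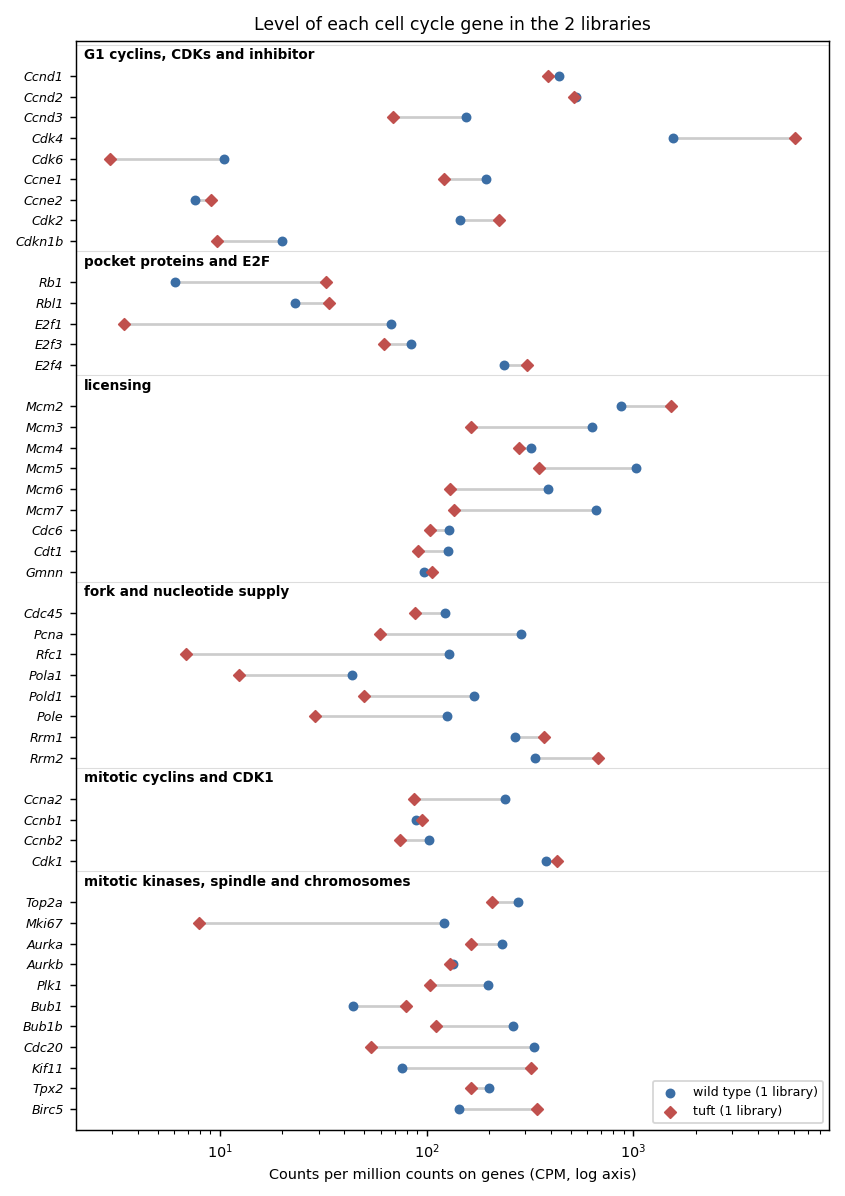
Level of each of the 46 genes in CPM (log axis) in the wild-type library (blue circles) and the *tuft* library (red diamonds), grouped by role and joined by a grey line. The longest lines to the left of the wild-type value are those of *E2f1*, *Rfc1* and *Mki67*, and *Cdk4* is the rightmost gene in both libraries.

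Among pocket proteins and E2F factors, *Rb1* and *E2f1* differed most and in opposite directions. *Rb1* (chromosome 14 from 73192858 to 73325951) encodes the retinoblastoma protein, which holds back activating E2F factors. It had 209 *tuft* counts and 86 wild-type counts, or 32.5 and 6.03 CPM, a fold of 7.08 (5.48 to 9.21). *Lpar6*, which lies within its span, had 195 and 331 counts and a fold of 1.72. *E2f1* (chromosome 2 from 154559400 to 154569892), an activating E2F, had 22 and 963 counts, or 3.42 and 67.6 CPM, a fold of 0.0665 (0.0415 to 0.101). It overlaps *Necab3*, with 25 and 17 counts. The 2 genes exchanged their order, with 9.5 *Rb1* counts for each *E2f1* count in *tuft* (6.11 to 15.5) and 0.0893 in wild type (0.0708 to 0.111).

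The rest of this group stayed within 2-fold. *E2f3*, another activating E2F, had 402 and 1198 counts and a fold of 0.977 (0.871 to 1.09). *E2f4*, which acts mainly as a repressor with pocket proteins, had 1967 and 3382 counts (fold 1.69, 1.6 to 1.79). *Rbl1*, which encodes the pocket protein p107, had 217 and 330 counts, a fold of 1.91 (1.61 to 2.28), just inside the threshold. Per kilobase of transcript, *E2f1* was at 24.5 CPM per kb and *E2f3* at 17.9 in wild type, and at 1.24 and 13.3 in *tuft*, so that their order differed between the libraries.

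The MCM2-7 helicase, a ring of 6 different subunits that unwinds DNA at the fork, was lower in 4 subunits, higher in 1 and neither in 1. *Mcm2* (chromosome 6 from 88883474 to 88898780) had 9746 *tuft* counts and 12466 wild-type counts, a fold of 2.28 (2.22 to 2.34). *Mcm7* (chromosome 5 from 138164583 to 138172111) had 870 and 9455, a fold of 0.268 (0.25 to 0.287). *Mcm3* had 1054 and 8984 counts (0.342, 0.320 to 0.364). Between these lay *Mcm4*, which was not past 2-fold in either direction, with 1792 and 4548 counts (1.15, 1.09 to 1.21). *Mcm5* had 2242 and 14631 counts (0.446, 0.427 to 0.467) and *Mcm6* 834 and 5538 (0.439, 0.407 to 0.472). *Mcm2* was no longer past 2-fold with library totals as the scale, where its log2 fold was 0.79, and the 4 lower subunits were past it on all 4 scales. *Mcm7* overlaps *Ap4m1*, which had 265 and 767 counts and a fold of 1.01.

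Ratios within a library do not depend on the scale between libraries. Compared between the libraries, they restate the folds of the genes and are no separate result. Per kilobase of transcript, the 6 subunits of wild type lay between 88.9 CPM per kb (*Mcm4*) and 300 (*Mcm5*), a span of 3.37-fold. In *tuft* they lay between 29.8 (*Mcm6*) and 450 (*Mcm2*), a span of 15.1-fold. *Mcm2* made up 22.1% of the summed level per kb of the 6 in wild type and 59.2% in *tuft*. There were 11.2 *Mcm2* counts for each *Mcm7* count in *tuft* (10.5 to 12.0) and 1.32 in wild type (1.28 to 1.35). The plot of levels per kilobase shows *Mcm2* standing above the other 5 in *tuft*, whereas *Mcm5* was the highest in wild type.

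**Figure D4:**
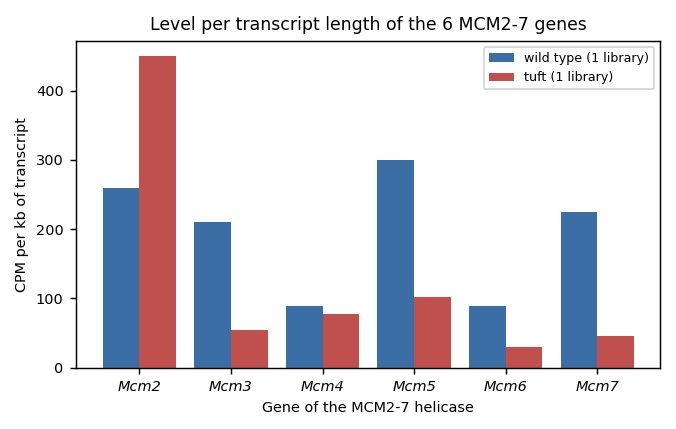
Level of the 6 MCM2-7 genes in CPM per kilobase of the longest coding transcript, for the wild-type library (blue bars) and the *tuft* library (red bars), 1 library each and without error bars. The *tuft* bar of *Mcm2* reaches 450 and its other 5 bars lie between 29.8 and 102, while the wild-type bars lie between 88.9 and 300.

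The loading factors of MCM2-7 stayed within 2-fold. *Cdc6* had 670 *tuft* counts and 1827 wild-type counts, a fold of 1.07 (0.976 to 1.17). *Cdt1* had 584 and 1810 counts (0.94, 0.854 to 1.03). *Gmnn*, which encodes geminin, had 681 and 1387 (1.43, 1.30 to 1.57). The intervals of *Cdc6* and *Cdt1* reached 1, so that counting error alone covered their difference, and that of *Gmnn* did not. Within the libraries there were 0.858 *Cdt1* counts for each *Gmnn* count in *tuft* (0.767 to 0.959) and 1.30 in wild type (1.22 to 1.40).

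At the fork, all 3 catalytic subunits of the replicative polymerases were past 2-fold lower in *tuft*. *Pola1*, of the polymerase that makes primers, had 80 and 619 counts and a fold of 0.376 (0.294 to 0.476). *Pold1*, of the lagging strand polymerase, had 320 and 2419 (0.385, 0.342 to 0.433), and *Pole*, of the leading strand polymerase, 185 and 1794 (0.30, 0.257 to 0.350). The sliding clamp that tethers polymerases to DNA and its loader were lower as well. *Pcna*, the clamp, had 382 and 4087 counts, or 59.4 and 287 CPM, a fold of 0.272 (0.244 to 0.302). *Rfc1* (chromosome 5 from 65261852 to 65338617), the large subunit of the loader, had 44 and 1823 counts, a fold of 0.0703 (0.0509 to 0.0947), which was near that of *E2f1*. *Pcna* has pseudogenes in the annotation, *Pcna-ps1* and *Pcna-ps2*, with which it can share reads.

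Not all fork genes were lower. *Cdc45*, a partner of the helicase, had 565 and 1758 counts, and its fold of 0.936 had an interval that reached 1 (0.850 to 1.03). The 2 subunits of ribonucleotide reductase, which makes deoxyribonucleotides, lay on the other side. *Rrm2* had 4343 and 4782 counts, or 675 and 336 CPM, a fold of 2.64 (2.54 to 2.76). *Rrm1* had 2380 and 3828, a fold of 1.81 (1.72 to 1.91), under the threshold. *Rrm2* was above *Rrm1* in both libraries, with 1.82 counts for each in *tuft* (1.74 to 1.92) and 1.25 in wild type (1.20 to 1.30).

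Of the mitotic cyclins and CDK1, only *Ccna2* was past 2-fold. *Ccna2*, which encodes cyclin A2 of S phase and early mitosis, had 557 *tuft* counts and 3411 wild-type counts, a fold of 0.476 (0.434 to 0.520). It overlaps *Exosc9*, which had 22 and 415 counts and a fold of 0.154. *Ccnb1* had 614 and 1263 counts (1.42, 1.28 to 1.56) and *Ccnb2* 476 and 1471 (0.942, 0.848 to 1.05), both with a pseudogene in the annotation. *Cdk1*, the kinase of both cyclin types and the mitotic gene with the most counts in each library, had 2763 and 5384 counts, or 430 and 378 CPM, a fold of 1.49 (1.43 to 1.56). *Ccnb1* and *Ccna2* were near each other in *tuft*, with 1.10 counts for each (0.981 to 1.24), and far apart in wild type, with 0.370 (0.347 to 0.395).

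Among the other mitotic genes, *Kif11*, *Birc5* and *Bub1* were past 2-fold higher. *Kif11* (chromosome 19 from 37376382 to 37421863), the motor that separates spindle poles, had 2052 *tuft* counts and 1083 wild-type counts, or 319 and 76.0 CPM, a fold of 5.52 (5.12 to 5.94). *Birc5*, which encodes survivin of the chromosomal passenger complex, had 2206 and 2040 (3.15, 2.96 to 3.35). *Bub1*, a kinase of the spindle checkpoint, had 510 and 625 (2.38, 2.11 to 2.68), and was no longer past 2-fold with library totals as the scale (log2 fold 0.85). *Kif11* and *Birc5* had more counts in *tuft* although its library was the shallower.

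*Mki67* and *Cdc20* were past 2-fold lower. *Mki67* (chromosome 7 from 135689784 to 135716450), the proliferation marker Ki-67 that coats mitotic chromosomes, had 51 and 1726 counts, or 7.93 and 121 CPM, a fold of 0.0860 (0.0638 to 0.114). *Cdc20* (chromosome 4 from 118432901 to 118437343), the activator of the anaphase-promoting complex, had 345 and 4689 counts, or 53.6 and 329 CPM, a fold of 0.214 (0.192 to 0.239). *Elovl1*, which overlaps *Cdc20*, had 363 and 705 counts and a fold of 1.5. The 120 bases before the start of *Cdc20* hold the same 2 motifs as those of *Cdk1* and *Kif11*, and these 3 genes had folds of 0.214, 1.49 and 5.52. For each *Cdk1* count there were 0.125 *Cdc20* counts in *tuft* (0.111 to 0.140) and 0.871 in wild type (0.837 to 0.906).

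The remaining 6 mitotic genes lay within 2-fold, from *Bub1b* at 0.558 to *Aurkb* at 1.27. *Top2a*, the topoisomerase that untangles chromosomes, had 1330 and 3965 counts (0.977, 0.917 to 1.04). *Aurka*, the kinase of spindle poles, had 1050 and 3303 (0.926, 0.863 to 0.993), and *Tpx2*, its activator, 1058 and 2858 (1.08, 1.00 to 1.16). *Top2a* differed by no more than counting error, and the intervals of the other 2 ended close to 1. *Aurkb*, the kinase of the passenger complex, had 835 and 1914 counts, and *Plk1*, a kinase of mitotic entry, 669 and 2824 (0.690, 0.633 to 0.751). *Bub1b*, the checkpoint partner of *Bub1*, had 712 and 3717 counts (0.558, 0.514 to 0.605) and was past 2-fold lower with library totals as the scale.

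The ratios of partners within mitosis also differed between the libraries. Such ratios restate the folds of the 2 genes, and no ratios of other pairs were taken as a background. For each *Bub1b* count there were 0.716 *Bub1* counts in *tuft* (0.638 to 0.804) and 0.168 in wild type (0.154 to 0.183). *Birc5* and *Aurkb*, of the same complex, stood at 2.64 (2.44 to 2.86) and 1.07 (1.00 to 1.14). The 3 proliferation genes in common use as markers did not move together, as *Mki67* was past 2-fold lower, *Pcna* too, and *Top2a* was neither.

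Mitotic and replication genes were also compared as sums within each library. The 15 mitotic genes had 15228 counts in *tuft* and the 17 replication genes 26772, a ratio of 0.569 (0.558 to 0.580). In wild type they had 40273 and 81756, a ratio of 0.493 (0.487 to 0.499). The ratio was thus 1.15 times as high in *tuft*, beyond counting error. Without *Mcm2* and *Cdk1*, the gene of each list with the highest mean CPM, it was 1.45 times as high, and from the medians of the folds 2.19 times.

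NOISeq-sim takes its noise from libraries drawn from the counts themselves. As re-implemented here, it called 15 of the 46 genes (32.6%), 8 higher and 7 lower, beside 32.5% of all 17140 genes with a count. On the CPM scale it called 14 (30.4%), 8 higher and 6 lower, beside 18.8% of all genes. A call also needs a large absolute difference and so depends on level. The 17140 genes include those with few counts, and no set matched by level was used here. Each called gene of the 46 was also past 2-fold. The 8 higher ones were *Cdk4*, *Cdk2*, *Rb1*, *Mcm2*, *Rrm2*, *Bub1*, *Kif11* and *Birc5*. The lower ones were *E2f1*, *Mcm7*, *Pcna*, *Rfc1*, *Mki67* and *Cdc20* on both scales, and *Pole* on the first. *Mcm3*, *Mcm5*, *Mcm6*, *Pola1*, *Pold1*, *Ccna2* and *Cdk6* were past 2-fold lower without such a call.

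Another 165 cell cycle genes gave the setting. They were listed by function, with earlier results of these data known. Of these, 28 were past 2-fold higher (17%), 54 lower (32.7%) and 83 neither, with a median log2 fold of -0.19. Over all genes tested, 21.2% were higher and 37.3% lower, with a median of -0.46. With library totals as the scale, 19 were higher and 69 lower, beside the 15.8% and 45.7% of all genes tested. NOISeq-sim called 61 of them (37.0%), 30 higher and 31 lower, and 49 (29.7%) on the CPM scale. It called 32.5% and 18.8% of all genes with a count, which were not matched to them by level.

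The lists differed in their counts, and none of these differences was tested. The shares over all genes tested were 21.2% higher and 37.3% lower. Of 18 further genes of G1 and CDK control, 5 were higher and 4 lower, and of 14 of the E2F and DREAM group 2 and 3. Of 16 origin and helicase genes 4 were higher and 4 lower, and of 29 fork genes 7 and 7, with median log2 folds of 0.30 and 0.11. In the wider fork list as many genes were thus higher as lower, whereas 5 of the 8 fork genes among the 46 were lower and 1 higher. The difference between these lists was not tested. Of 9 checkpoint genes 1 was higher and 4 lower, and of 40 of the kinetochore, spindle and cytokinesis 6 and 11. The spindle checkpoint and anaphase-promoting complex (APC/C) list of 22 had 3 higher and 11 lower (median -1.0), in which 7 of 12 APC/C core subunits were lower and 1 higher. The 17 genes of condensin and cohesin, the rings that compact and hold together chromosomes, had none higher and 10 lower (median -1.23), among them 4 of 8 condensin and 3 of 5 cohesin ring subunits.

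**Figure D5:**
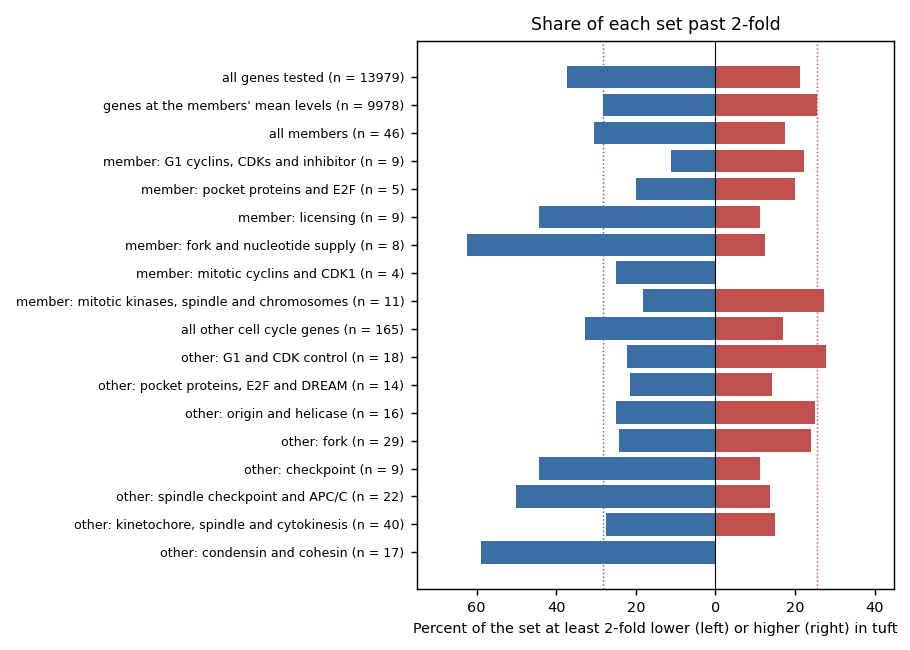
Percent of each gene set past 2-fold lower (blue bars to the left) or higher (red bars to the right) in *tuft*, with the number of genes of the set in brackets. Dotted lines mark the shares of the 9978 genes at the levels of the 46 members, 28.4% lower and 25.4% higher. The longest bars to the left are those of the 8 fork members (62.5%) and the 17 condensin and cohesin genes (58.8%), which have no bar to the right.

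Of these 165 genes, 121 reached 100 counts in each library, and their 3 highest folds were those of *Spc24*, *Ccng2* and *Orc4*. *Spc24*, of the kinetochore complex that holds microtubules, had 4185 *tuft* counts and 1506 wild-type counts (8.09, 7.63 to 8.59). *Ccng2*, an atypical cyclin linked to cell cycle arrest, had 356 and 146 (7.10, 5.84 to 8.67), and *Orc4*, of the origin recognition complex, 424 and 196 (6.30, 5.31 to 7.5). All 3 had more counts in the shallower *tuft* library. The lowest were *Bub3*, a checkpoint protein that binds BUB1 and the product of *Bub1b*, with 252 and 4219 counts (0.174, 0.153 to 0.198), *Anapc7* of the APC/C with 129 and 2014 (0.187, 0.155 to 0.223), and *Kif20a*, a motor of cytokinesis, with 252 and 3773 (0.194, 0.171 to 0.221). *Bub3* was therefore lower in *tuft* while *Bub1* was higher. At 100 wild-type counts or more, *Anapc10* (161) and the condensin gene *Ncapg* (389) had no count in *tuft*. With *tuft* set to the floor of 3 counts, they were 18.4-fold and 44.5-fold lower. The counting intervals of their folds ended at 0.0675 and 0.0277.

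Features of the genes that can move counts were set beside the folds. Transcript length had a Spearman's rho of -0.04 with the log2 fold across the 46 genes, -0.19 across 162 of the other cell cycle genes and -0.03 across the genes within their level range, each across genes of the same 2 libraries. Of the 46 genes, 13 overlap another counted gene, and 5 of these were past 2-fold lower and 3 higher. Of all genes tested, 37.3% were lower and 21.2% higher. *Tpx2*, among the 13, overlaps only *Mir5622*, which had 0 counts in both libraries. The effect on these folds of reads left out as ambiguous or not unique was not tested.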

How the data were processed

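RNA of rostrums (E9, 3 pooled embryos) was sequenced on Ion Torrent and 1 column of counts per genotype was used. The authors deposited a table of unnormalized read counts by gene symbol for each library. Per the paper's methods and the submitters' processing notes, reads were filtered with PRINSEQ, aligned to mm10 with TopHat2 2.0.14 and Bowtie2 2.2.5, handled with SAMtools 0.1.18 and counted with HTSeq, whose version is not given in the sources used here. Cufflinks 2.1.1 is also named there. Each count column ends with summary lines, left out of totals: alignments that were not unique took 59.2% of entries in *tuft* and 51.4% in wild type, entries on no gene 12.8% and 10.8%, and ambiguous ones 0.667% and 0.526%. No column was left out (0).

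Counts were 14251942 (wild type) and 6433067 (*tuft*). A count of 0 was set to a floor of 3 counts, which is 0.210 and 0.466 CPM. TMM trimmed 30% of log ratios and 5% of levels (factor 0.761). Genes with at least 10 counts over both libraries were kept. The reads had no molecular identifiers, so intervals and the floor hold counting error and nothing else. As neither genotype was replicated, no residual degrees of freedom are left for the quasi-likelihood test of edgeR, and no p-value is given. NOISeq-sim, the method of the study, was re-implemented as an alternative (0.5 for counts of 0, 5 drawn libraries of relative size 0.2 and variation 0.02, threshold 0.95). It was run on simulated data with known changes, and the outcome is not given here. Those data held counting error only and far fewer changed genes than these libraries. On both scales NOISeq-sim called more genes here than the paper reports at the same threshold, so its calls are not those of the study. Python 3.11.15, numpy 2.4.6, scipy 1.17.1, pandas 2.3.3, numba 0.67.0 and matplotlib 3.10.9 were used.

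Every one of the 46 genes is given. The pairs of genes set as ratios were chosen by hand, with no background of other pairs. From the marker lists, 1 gene is not reported here. Of the other cell cycle genes, the 3 highest and 3 lowest folds among those with at least 100 counts in both libraries are named, and those at 0 in a library with at least 100 counts in the other. The genes, lists and alternatives were chosen with earlier results of these data known. Positions, overlaps and promoters came from RefSeq (GRCm38.p6) and transcript lengths from GENCODE M1 (NCBIM37, no coordinates used). Alternatives were other scales (library totals, upper quartile, DESeq2 size factors), filters, folds of 1.5 and 4, and NOISeq-sim.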

Additional observations from a re-analysis of the deposited data

How the results depend on the processing

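No paired analysis was possible because each genotype has 1 column of counts, and for the same reason no replicate was left out and no difference was tested. The intervals hold counting error, and these data give no spread between embryos.

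With library totals as the scale, all log2 folds shifted by -0.39, 5 of the 46 genes were past 2-fold higher (15.8% of all genes tested), their median log2 fold was -0.45 (-0.85 over all genes tested) and that of the 165 other genes -0.58. *Cdk2*, *Mcm2* and *Bub1* were then no longer past 2-fold and *Ccnd3*, *Cdkn1b* and *Bub1b* were. The upper quartile and DESeq2 size factors shifted the folds by -0.05 and 0.05. The sign differed from that under TMM for 6 genes with library totals and 2 with DESeq2 size factors, none of them past 2-fold under TMM.

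At a fold of 4, 3 of the 46 genes were higher and 4 lower, and 8 and 27 of the other 165, beside 9.2% and 22.1% of all genes tested. At a fold of 1.5, 50 of the other genes were higher and 70 lower, beside 28.2% and 45.6%. NOISeq-sim called 7 of the 46 genes and 31 of the others lower (15.7% of all genes), and 6 and 21 on the CPM scale (6.34%). Within the 46 genes, the ratio of mitotic to replication genes was 1.45 times as high in *tuft* without *Cdk1* and *Mcm2*, and 2.19 times by medians. The wider lists of other cell cycle genes did not repeat a higher ratio in *tuft*. The filters on low counts moved none of these gene counts by over 1.5 times. A minimum of 10 counts in each library did move the values over all genes tested, with 23.0% lower in place of 37.3% and a median of 0.11 in place of -0.46, and *Tet1* stayed lower on all scales.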
